A study of Caenorhabditis elegans with 2 samples.

Results

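Binding of ZTF-11 was described at 9 protein-coding genes of the heterochronic pathway of Caenorhabditis elegans: lin-14, lin-28, hbl-1, lin-46, lin-41, lin-29, lin-42, nhl-2 and ain-1. They were taken by name from the annotation of the WBcel235 assembly, by a rule that uses no measured value, out of 19973 protein-coding genes on the nuclear chromosomes. The set itself was chosen with earlier results of these data known. For each, every peak whose summit lay in the gene body or up to 5000 bp upstream of the annotated 5′ end was taken. This stretch is called the window of the gene. The data came from chromatin immunoprecipitation followed by sequencing (ChIP-seq) of ZTF-11 carrying an eGFP tag, in whole animals of strain OP236 at the third larval stage (L3), males and females pooled. The strain carries the integrated transgene wgIs236 in an unc-119(ed3) III background, and all samples shared this genotype. They formed 1 group of 2 biological replicates, with a library size range given as 150 to 350. The sources used here do not name the promoter that drives the transgene. The antibody field names ztf-11 itself. No untagged or other strain was used here, and in whole animals binding in different tissues cannot be told apart.

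Heterochronic genes set the order of cell fates across the larval stages, above all in the seam cells of the lateral epidermis. Early-acting factors such as LIN-14, LIN-28 and HBL-1 are switched off in turn by the lin-4 and let-7 family microRNAs, and the zinc finger factor LIN-29 drives the change to adult fate at the end of larval life. ZTF-11 itself is a zinc finger protein of the Myt1 family, known for repressing non-neuronal genes in neurogenesis.

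In the list called on both replicates together 5 of the genes had a peak. The sequence under each of these summits is shown because it is the gene's only peak in that list. At ain-1 and lin-14 the pooled peak had a counterpart in replicate 1 alone, as replicate 2 had no peak in either gene's window. The windows at the lin-14 peaks of rank 154 and 489 are added, since lin-14 held several strong replicate 1 peaks. Each sequence is 101 bases of the plus strand of ce11 centred on the summit, read from the RefSeq genome of the same assembly. Capitals mark GAGAGA or its reverse complement TCTCTC.
nhl-2, thresholded list rank 93, chrIII:4899870-4899970: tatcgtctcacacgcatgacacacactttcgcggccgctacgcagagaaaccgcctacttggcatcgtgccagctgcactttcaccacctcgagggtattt
ain-1, pooled list rank 323, chrX:16612508-16612608: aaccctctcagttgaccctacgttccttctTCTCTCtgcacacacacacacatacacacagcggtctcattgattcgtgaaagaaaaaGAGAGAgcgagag
lin-14, pooled list rank 369, chrX:11482808-11482908: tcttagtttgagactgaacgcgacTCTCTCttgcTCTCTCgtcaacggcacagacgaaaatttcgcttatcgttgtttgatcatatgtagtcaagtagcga
hbl-1, pooled list rank 513, chrX:5817208-5817308: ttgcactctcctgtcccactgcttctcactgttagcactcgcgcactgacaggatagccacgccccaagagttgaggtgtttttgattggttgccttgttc
lin-42, pooled list rank 539, chrII:1246897-1246997: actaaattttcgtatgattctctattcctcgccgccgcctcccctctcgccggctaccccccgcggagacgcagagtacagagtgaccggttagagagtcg
lin-14, replicate 1 list rank 154, chrX:11473197-11473297: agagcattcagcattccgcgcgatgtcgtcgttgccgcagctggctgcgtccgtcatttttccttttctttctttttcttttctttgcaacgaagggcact
lin-14, replicate 1 list rank 489, chrX:11465441-11465541: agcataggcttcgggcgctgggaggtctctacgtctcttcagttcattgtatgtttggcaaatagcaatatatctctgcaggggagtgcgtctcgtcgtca
Of these 7 windows, those of ain-1 and of lin-14 at rank 369 held 2 copies of GAGAGA each, and the other 5 held none. In windows of the same length GAGAGA was at 14.7% of all nuclear pooled peaks and 7.81% of all replicate 1 peaks. AAGTTT, the core of sites known for the Myt1 family, was in none of them on either strand, and it was at 8.9% of all nuclear pooled peaks and 12% of all replicate 1 peaks. Within 100 bp of the summit it was at 1 of the 5 pooled peaks, that of hbl-1, against 19.4% of the nuclear peaks of the pooled list. Each window occurred 1 time in the genome. Their GC content ran from 43.6% at the pooled lin-14 peak to 58.4% at lin-42.

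The deposited data were ranked peak lists, not reads. On build ce11 the replicate 1 list held 30000 peaks and the replicate 2 list 2036. The pooled list, called by the authors on both replicates together, held 631. Their list thresholded by the irreproducible discovery rate (IDR), a method meant to keep peaks of repeatable rank, held 96. The authors label the pooled list as peaks and background used as input for IDR, so not every entry in it stands for binding. Each peak carries the authors' own signal score, used here for its rank within a list (rank 1 is the strongest), and a q-value. Scores of different lists are not on one scale. A q of 0.05 or less was given to 4.91% of replicate 1 peaks and 2.75% of replicate 2 peaks. Most peaks named below therefore have high q-values. The lists hold no read numbers, so the depth is unknown, and whether the lengths of the replicate lists differ through depth was not tested.

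All 9 genes had a peak in the replicate 1 list, where 88.3% of all protein-coding genes had one. In the replicate 2 list 5 had a peak (lin-28, lin-42, lin-46, hbl-1 and nhl-2), against 14.9% of all genes. In the pooled list 5 had a peak (lin-14, lin-42, hbl-1, nhl-2 and ain-1), against 5.01% of all genes. In the thresholded list nhl-2 alone had one, against 0.631% of all genes. An overlapping pair of peaks from both replicate lists was found at lin-42, hbl-1 and nhl-2, and at 5.44% of all genes. A replicate 1 peak with q of 0.05 or less was found at lin-14, hbl-1 and nhl-2, against 11.1% of all genes. The same 3 genes held a peak among the strongest 2036 of replicate 1, as many as replicate 2 lists, against 15.1% of all genes. None of the 9 had a replicate 2 peak with q of 0.05 or less, which 0.245% of all genes had. The windows of the 9 genes were longer than most, with a median of 10.6 kb against 7.03 kb over all genes, and a longer window holds more peaks.

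**Figure D1:**
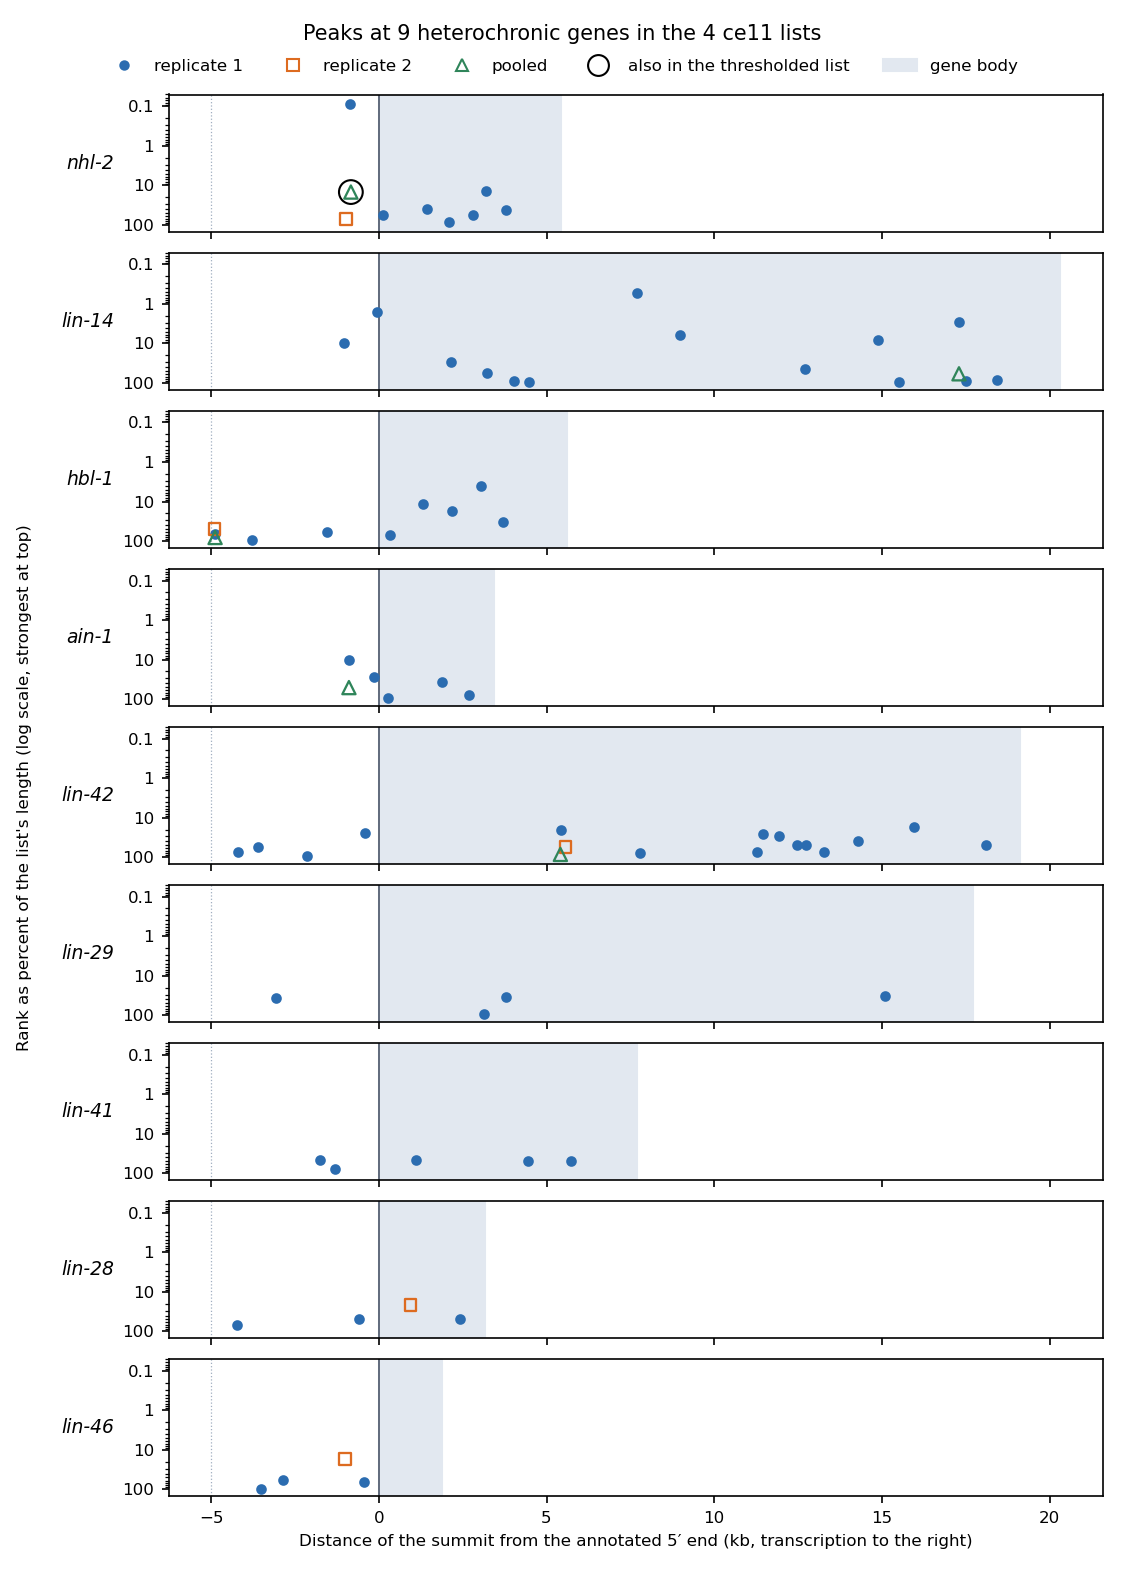
Peaks in the windows of the 9 genes, placed by the distance of the summit from the annotated 5′ end (x axis, kb) and by rank as a percent of the length of its own list (y axis, log scale, strongest at the top). Points are replicate 1, squares replicate 2, triangles the pooled list, and the ring marks the nhl-2 peak that is also in the thresholded list. The strong nhl-2 signal lies upstream of the gene, while lin-14 has its strong peaks at the 5′ end and in introns.

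nhl-2 encodes a TRIM-NHL protein that acts with the microRNA-induced silencing complex and aids repression by the let-7 family. The gene lies at III 4893658 to 4899085 on the minus strand. Its peak in the thresholded list ran over III 4899760 to 4900079. It ranked 93 of 96, and its score of 41.6 was close to the lowest score kept, 41.0. The same peak ranked 93 in the pooled list, with q = 0.07. In replicate 1 the overlapping peak ranked 26, with a score of 31.9 and q = 0.0069. In replicate 2 the overlapping peak ranked 1421, with a score of 15.6 and q = 0.93. The signal was therefore near the top of the replicate 1 list and in the weaker part of the replicate 2 list, with summits 132 bp apart. A replicate 1 peak at least as strong was found in the windows of 0.215% of protein-coding genes.

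The thresholded summit lay 835 bp upstream of nhl-2, but nhl-2 was not the nearest gene. It lay inside the noncoding RNA gene F26F4.14, 30 bp from its 5′ end. Among protein-coding genes the nearest 5′ end was that of tag-340, at 588 bp, and the summit was in the windows of these 2 protein-coding genes. Which of the genes the binding belongs to was not tested. The other 6 replicate 1 peaks of nhl-2 lay in its body, at ranks from 4151 to 25124, and none of them had a counterpart in another list.

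ain-1 encodes a GW182 family protein that binds Argonaute proteins and carries out microRNA repression. It lies at X 16613451 to 16616871 on the plus strand. Its pooled peak, at X 16612398 to 16612717, had a score of 29.8, rank 323 and q = 0.66, with the summit 893 bp upstream of the 5′ end. In replicate 1 a peak with its summit at the same distance had a score of 13.7, rank 3147 and q = 0.11. Replicate 2 had no peak in the window. The pooled signal at ain-1 thus had a counterpart in 1 replicate, and here the gene itself had the nearest 5′ end of all gene types. Another replicate 1 peak, rank 8509, lay 134 bp upstream, and the other 3 were in coding exons. Just outside the window, 426 bp past the 3′ end, replicate 1 held a stronger peak at rank 1322.

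lin-14 encodes a nuclear factor that specifies early larval fates and is the classic target of lin-4. The gene is 20.3 kb long, at X 11465560 to 11485871 on the plus strand. It held 14 replicate 1 peaks, of which 9 were in introns. The strongest, rank 154 with a score of 22.5 and q = 0.016, lay in intron 3 within the noncoding RNA gene T25C12.6, 7687 bp downstream of the 5′ end. The next, rank 489 with q = 0.03, lay 69 bp upstream of the 5′ end. Rank 841, with q = 0.033, lay in intron 6, and rank 1818 in intron 3. A peak of rank 2378 lay in a 5′ UTR, 82 bp from the start of the shorter transcript. The stronger replicate 1 peaks of lin-14 thus included 1 beside each of its 2 transcript starts, and others between and after them. A replicate 1 peak as strong as rank 154 was found at 1.24% of protein-coding genes.

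Replicate 2 had no peak anywhere in the lin-14 window. Of the 3 strongest replicate 1 peaks, the one in intron 6 was in the pooled list, at X 11482698 to 11483017 with a score of 29.2, rank 369 and q = 0.7. Its summit was 17298 bp downstream of the annotated 5′ end and 2497 bp from the start of the shorter transcript. The nearest 5′ end of all gene types was that of the snoRNA gene T25C12.11, at 1635 bp. Among protein-coding genes it was that of spp-9, at 4926 bp, and the summit lay in the windows of both lin-14 and spp-9. The peaks of rank 154 and 489 were not in the pooled list. Over the whole replicate 1 list, 33.8% of the peaks of rank 101 to 500 and 14.2% of those of rank 501 to 1000 overlapped a pooled peak, so absence from the pooled list was common at these ranks. No peak of lin-14 was found in both replicates.

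lin-28 encodes an RNA-binding protein that blocks the maturation of let-7 and keeps early fates. It lies at I 8407630 to 8410804 on the minus strand. Its replicate 1 peaks were weak, at ranks 14307, 14672 and 20515. Replicate 2 held 1 peak with a score of 18.6, rank 441 and q = 0.69, in the 5′ UTR 937 bp downstream of the annotated 5′ end and 53 bp from the other transcript start. This peak overlapped none in replicate 1 and was not in the pooled list. The nearest pooled peak was 63.5 kb from the 5′ end.

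hbl-1, the hunchback-like zinc finger gene, keeps early larval fates and is repressed by let-7 family microRNAs. It lies at X 5822142 to 5827755 on the plus strand and held 8 replicate 1 peaks, the highest density of the 9 genes. Its strongest, rank 1198 with a score of 16.4 and q = 0.04, lay in coding exon 5, and peaks of rank 3471 and 5328 lay in coding exons 3 and 4. These gene-body peaks were in replicate 1 alone. The signal shared by both replicates lay 4.88 kb upstream, near the edge of the window, where replicate 2 had rank 1020 with q = 0.88 and replicate 1 rank 20271 with q = 0.57. The 2 summits were 27 bp apart, and the pooled list held the position at rank 513 with a score of 27.3 and q = 0.93. At hbl-1 the strong replicate 1 peaks and the shared peak were thus different places. The shared summit lay inside the noncoding RNA genes F13D11.11 and F13D11.12. A replicate 1 peak of rank 360 lay 555 bp beyond the upstream edge of the window. Farther out, a pooled peak of rank 443 and score 28.0 lay 2342 bp beyond that edge, and a replicate 2 peak of rank 1139 lay 2341 bp beyond it.

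lin-46 encodes a gephyrin-like scaffold protein that acts against HBL-1, downstream of lin-28. It lies at V 12968855 to 12970730 on the plus strand. Its 3 replicate 1 peaks were all upstream, with a best rank of 17920, the weakest best rank of the 9 genes. Replicate 2 held a peak of score 19.4, rank 346 and q = 0.59, 1016 bp upstream. It was the strongest replicate 2 peak of the set and had no counterpart in replicate 1. The summit lay inside the protein-coding gene R186.8, 143 bp from the 5′ end of that gene.

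lin-41 encodes a TRIM-NHL RNA-binding protein that is a main target of let-7 and holds back LIN-29. It lies at I 9334800 to 9342496 on the minus strand. Its 5 replicate 1 peaks had ranks from 14000 to 23518, 3 in coding exons and 2 upstream, and no other list had a peak in the window. The nearest pooled peak was 37.6 kb from the 5′ end. At lin-41 the lists thus hold weak replicate 1 peaks only.

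lin-29 encodes the zinc finger factor of the EGR type that directs the larval-to-adult switch in seam cells. It lies at II 11917642 to 11935343 on the minus strand. Its window of 22.7 kb held 4 replicate 1 peaks, the lowest density of the set, with a best rank of 9546. No peak of the other lists had its summit in the window. A stronger signal had its summits just past the 3′ end, outside the window. The pooled list had a peak there of rank 106 and score 39.9, with its summit 137 bp past the end. Replicate 2 had one of rank 447 at 161 bp, and replicate 1 one of rank 1653 at 254 bp. The nearest protein-coding 5′ end to all 3 summits was that of hmg-12. The pooled peak, at II 11917345 to 11917664, and the replicate 2 peak, at II 11917301 to 11917660, reached into the gene body. With any overlap of peak and window counted, the genes with a peak were 6 in each of these 2 lists.

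lin-42 encodes the relative of the clock protein PERIOD, whose level cycles with the molts. It lies at II 1233236 to 1252359 on the minus strand and held 15 replicate 1 peaks, the most of the 9 genes, though with a best rank of 5250, in intron 6. The shared signal was in intron 1, where replicate 1 had rank 6252 with q = 0.22 and replicate 2 rank 1123 with q = 0.9. The summits were 142 bp apart. The pooled list held the position at rank 539 with a score of 27.1 and q = 0.93, with the summit 5412 bp downstream of the 5′ end and 21 bp from the noncoding RNA gene F47F6.13. As at hbl-1, the shared position was not the strongest of the gene in replicate 1. A replicate 1 peak of rank 602 lay 2987 bp past the 3′ end, outside the window.

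**Figure D2:**
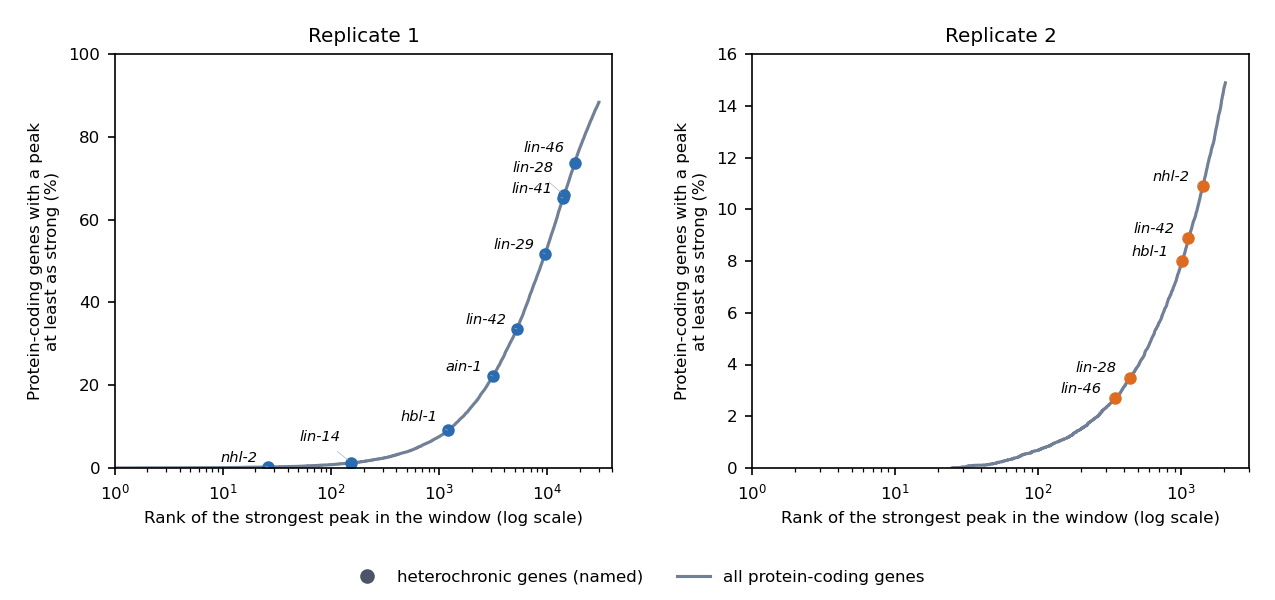
Strongest peak of each gene in replicate 1 (left) and replicate 2 (right) by rank in the list (x axis, log scale), on the curve of the share of all protein-coding genes with a peak at least as strong (y axis, percent). In replicate 1 the genes spread from nhl-2 at 0.215% to lin-46 at 73.7%, and in replicate 2 the 5 genes with a peak lie between 2.7% and 10.9%.

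The order of the genes differed between the replicates. In replicate 1 nhl-2, lin-14 and hbl-1 led, and lin-28 and lin-46 were among the weakest. In replicate 2 lin-46 and lin-28 led and nhl-2 was the weakest of the 5 with a peak. The median best rank was 5250 over the 9 genes, against 7468 over all genes with a peak in replicate 1. The windows of the 9 genes were longer than most, and a longer window can give a better best rank. Within 1000 bp of the 5′ end the replicate 1 median was 7399 over the 7 genes with a peak. The value over all genes at that setting is not given. In replicate 2 the median best rank was 1020 over the 5 genes, against 943 over all genes with a peak, and in the pooled list 369 against 321. Of the 5 replicate 2 peaks in the windows, 3 overlapped a replicate 1 peak, against 33.3% of the whole replicate 2 list. With 1 value per replicate and no read numbers, no test of these differences was made.

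Peaks were denser in the windows of the 9 genes than in those of all protein-coding genes, which takes window length into account. Replicate 1 had 64 peaks over 129 kb, or 4.95 per 10 kb against 3.18 over all genes, a ratio of 1.56. hbl-1 had 7.54 per 10 kb, nhl-2 6.71 and lin-42 6.22, against 1.76 at lin-29, the one gene below the value for all genes. The upper quartile over all genes was 4.58. Replicate 2 had 5 peaks in the windows, or 0.387 per 10 kb against 0.203. Most of the replicate 1 peaks counted here, and all of the replicate 2 ones, had q above 0.05. The 3 genes on X had 6.09 replicate 1 peaks per 10 kb, against 3.43 over all X genes, and the 6 autosomal genes had 4.35 against 3.13. In replicate 2 the order was the reverse. There the X genes had 0.225 against 0.185, from 1 peak, and the autosomal genes 0.471 against 0.206, from 4 peaks. By rank the replicate 1 peaks in the windows lay close to the middle of the list, with a median of 14520 over the 64 against 15000.5 for the list.

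**Figure D3:**
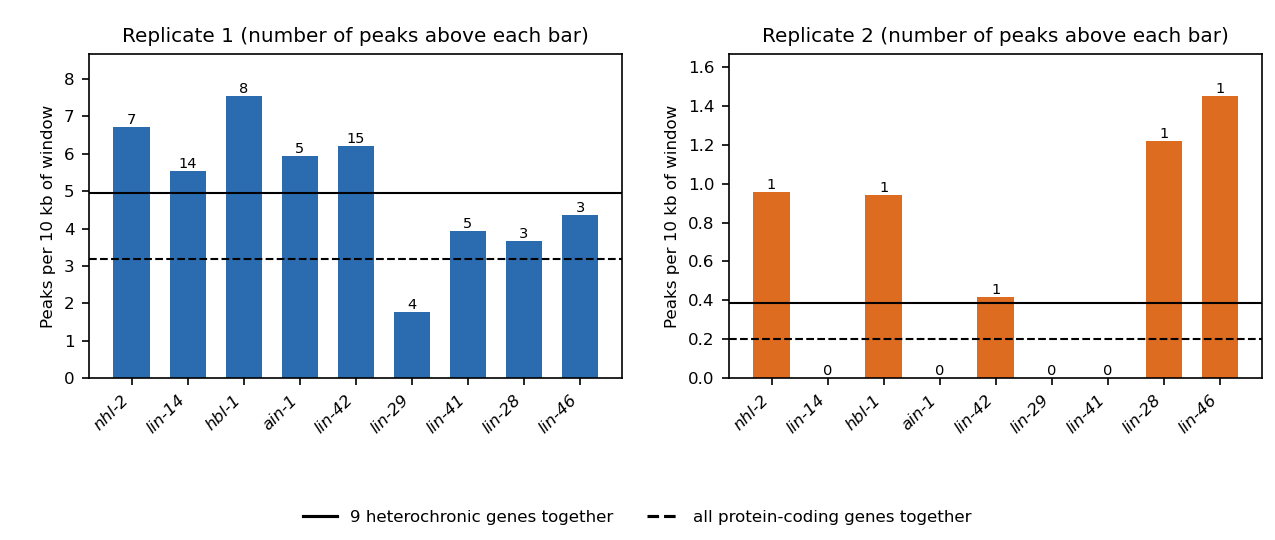
Peaks per 10 kb of window (y axis) for each of the 9 genes in replicate 1 (left) and replicate 2 (right), with the number of peaks above each bar. The solid line is the 9 genes together (4.95 and 0.387) and the dashed line all protein-coding genes together (3.18 and 0.203).

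The 64 replicate 1 peaks were spread over the genes: 20 lay upstream, 22 in introns, 20 in coding exons and 2 in UTRs, and 10 were within 1000 bp of the 5′ end. The gene whose window held the peak had the nearest 5′ end of all gene types for 18 of the 64, and for 44 when protein-coding genes alone were counted. No such split over all gene windows is given, so these counts are not shown to be particular to the 9 genes. Motifs were searched on both strands within 100 bp of each summit. AAGTTT was at 9 of the 64 peaks (14.1%), against 23.1% of all replicate 1 peaks. GAGAGA was at 9 of the 64 (14.1%), against 14.3%. GCGCAGGG, the core of the motif of dosage compensation sites on X, was at 0 of the 64, against 0.113%. None of the 3 motifs is contained in another. The median GC content of these windows was 42.5% over the 64 peaks and 40.8% over the list. A motif match is a description of the letters there.

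The wider pathway was described by 48 other genes in 5 groups. In replicate 1, 46 of the 48 had a peak in a window of the same rule, and 14 had one with q of 0.05 or less. In replicate 2 it was 10 of 48, in the pooled list 6 and in the thresholded list 3. An overlapping pair from both replicates was found at 4: mir-48, mir-241, mab-3 and din-1. Shares over all protein-coding genes were 88.3% in replicate 1, 14.9% in replicate 2, 5.01% in the pooled and 0.631% in the thresholded list. For a replicate 1 peak with q of 0.05 or less the share was 11.1%, and for an overlapping pair 5.44%. These shares are a rough guide here, as 6 of the 48 are small RNA genes.

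Of the 6 small RNA genes, 2 had a thresholded peak. The let-7 family microRNAs mir-48 and mir-241 are neighbours on V, and 2 of their thresholded peaks, of rank 62 and 96, lie in both windows, so they are not separate. A further one, of rank 66, lay 548 bp upstream of mir-48. Of the 12 genes of the microRNA and RNA binding machinery, all had a replicate 1 peak and 3 had a pooled one. drsh-1, which encodes the Drosha nuclease, had a thresholded peak of rank 59 in its window, but the summit was 61 bp from the 5′ end of cox-5B. sup-26, which encodes an RNA-binding protein, had a pooled peak of rank 269, with its summit nearest to the piRNA gene 21ur-13313, at 1423 bp. pash-1, which encodes the partner of Drosha, had one of rank 469, 3830 bp upstream and 511 bp from the 5′ end of the protein-coding gene T22A3.12. Among the 3 genes of protein turnover and kinase, kin-20, a casein kinase related to the partner of PERIOD in other animals, had a pooled peak of rank 102, 18 bp from the 5′ end of the noncoding RNA gene F46F2.12. The thresholded drsh-1 peak and the pooled peaks of sup-26 and kin-20 had a counterpart in replicate 1 alone. The pooled pash-1 peak had one in replicate 2 alone. None of the 15 transcription factor and hormone genes or of the 12 seam cell and cuticle genes had a pooled peak, while 4 and 2 of them had a replicate 2 peak. Over all protein-coding genes 5.01% had a pooled peak and 14.9% a replicate 2 peak. In groups this small, the counts are not shown to differ from those shares. Set beside these, nhl-2 with rank 26 had a stronger best peak in replicate 1 than each of the 48 other genes except drsh-1, at rank 11. This did not hold in the other lists. In the pooled list drsh-1 at rank 59 and mir-48 and mir-241 at rank 62 were stronger than nhl-2 at rank 93. In replicate 2 nhl-2, at rank 1421, was weaker than most of the 10 other pathway genes with a peak, led by pash-1 at rank 103.

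**Figure D4:**
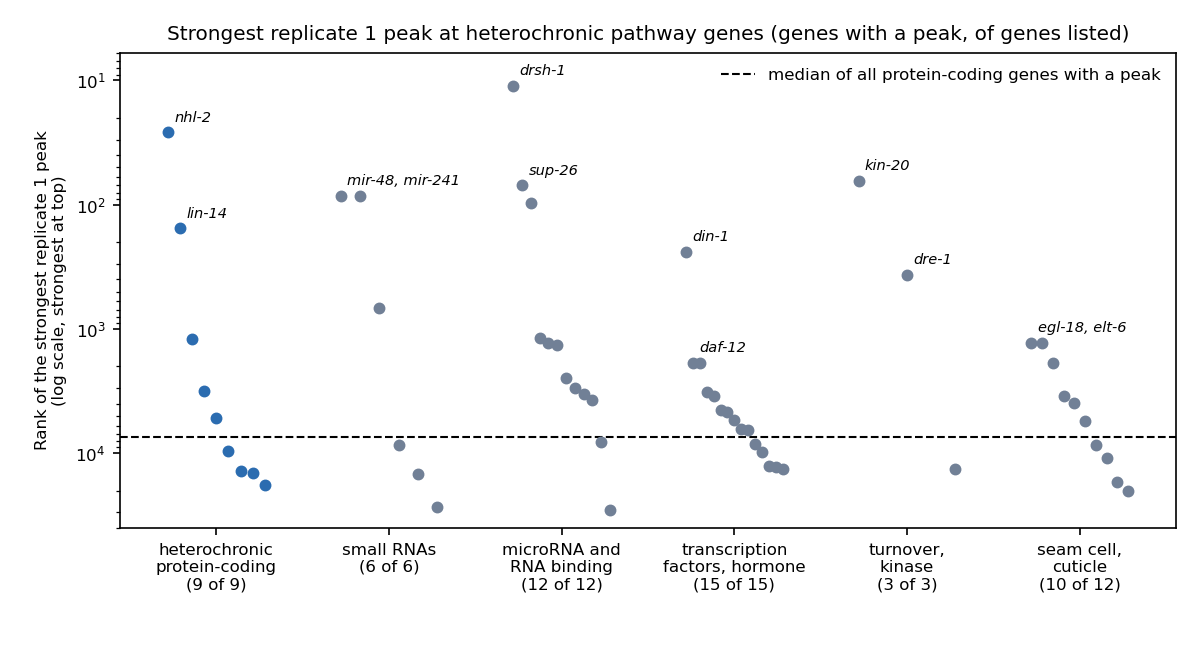
Rank of the strongest replicate 1 peak (y axis, log scale, strongest at the top) in the window of each gene, for the 9 heterochronic protein-coding genes (left) and the 5 groups of other pathway genes, with the number of genes with a peak of those listed under each group. The dashed line is the median over all protein-coding genes with a peak, 7468, and the strongest genes of each group are named.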

How the data were processed

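ChIP-seq of eGFP-tagged ZTF-11 was deposited for 2 biological replicates of 1 group, as peak lists. Per the labels' text records, the authors called peaks on each replicate with a control alignment and on both replicates together, and derived the thresholded list by IDR. No source used here names the aligner, peak caller, filters or IDR threshold. Each deposited peak has a signal score, of unstated scale, and a -log10 q-value by the authors, printed here as q. Depth is unknown.

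The ce11 lists were joined to the Ensembl 115 annotation of WBcel235, the same sequence as ce11; the ce10 lists were not used. Annotated gene starts served as 5′ ends, positions are 1-based, and peaks overlapped when they shared 1 bp or more. MicroRNA names were matched without their species prefix, and let-7 by its RefSeq coordinates. Sequences came from the RefSeq genome. Counting used Python 3.11.15, pandas 2.3.3 and NumPy 2.4.6, and figures matplotlib 3.10.9. The window search was tested on simulated data.

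With 1 group there was no test between groups, and members are set beside all protein-coding genes. The members, gene lists and windows were chosen with earlier results of these data known. All 9 genes are named, with their strongest replicate 1 peak and their peaks in the other lists. Other replicate 1 peaks, and peaks just outside a window, were chosen after their values were seen. Of the other pathway genes, those with a thresholded or pooled peak are named, and those with a pair in both replicates were added after their values were seen. Alternatives were other windows, nearest genes alone, shorter lists, other motif windows and each replicate left out. A limit of q at 0.05 was added after seeing the data.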

Additional observations from a re-analysis of the deposited data

How the results depend on the processing

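Of 65 values under alternative settings, 33 stayed close to the value reported and 32 moved. The 33 include the replicate 1 median best rank of 7399 within 1000 bp of the 5′ end, against 5250, so close is meant loosely. The numbers of genes with a peak depend on list length and, outside replicate 1, on the window and nearest-gene rules. Among these alternatives, shares over all genes are given above only for the strongest 2036 replicate 1 peaks and q of 0.05 or less. For the other settings, whether the share over all genes falls alike was not tested. In replicate 1 the 9 genes became 3 with the strongest 2036 peaks or q of 0.05 or less, 2 with the strongest 631 and 1 with the strongest 96. In replicate 2 the 5 genes became 2 within 1000 bp of the 5′ end or of any transcript start, 1 when the gene had to be nearest of any type and 3 when nearest of protein-coding genes. They became 2 with the part of the list above its median score (the stronger part) or the strongest 631 peaks, and 0 with the strongest 96 or with q of 0.05 or less. In the pooled list the 5 became 2 within 1000 bp of the 5′ end or of any transcript start, 1 and 3 under the same nearest-gene rules, and 1 with the stronger part of the list. In the thresholded list the 1 became 0 under both nearest-gene rules and with the stronger part of the list. The 3 genes with a pair in both replicates became 1 within 1000 bp of the 5′ end or of any transcript start, 0 when nearest of any type, 0 with the stronger part of the lists and 1 with the strongest 2036 replicate 1 peaks. With either replicate left out, a pair cannot be asked for, and the genes with a peak in the other numbered 5 to 9. Replicate 1 density was 2.71 peaks per 10 kb with the stronger part of the list. Replicate 2 density was 0.237 in gene bodies alone and 0.155 with the stronger part of the list. The ratio of density to that of all genes was above 1 in all 8 settings tried, at 1.33 to 2.01. AAGTTT was at 4 and 14 of the 64 peaks within 50 and 150 bp. Except where the setting itself shortens a list or window, the cause was not tested. No paired analysis was possible because there was 1 group. Peak lists without reads give no limit of detection, so a gene without a peak is not shown to be unbound.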
